A study of Mus musculus with 15 samples.

Results

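The comparison described here sets a Ddx41 heterozygous blood progenitor line that received wild-type DDX41 on a retrovirus (Het DDX41, 3 libraries) against a wild-type progenitor line that received the empty retrovirus (WT empty, 3 libraries). These are 6 of the 15 RNA-seq libraries of the series, chosen by their sample titles, and all genes were read. Both lines were made from mouse fetal liver and immortalized with Hoxb8, a homeobox factor kept active by β-estradiol in the medium. The genotypes are hi-Ddx41+/+ and hi-Ddx41+/-, and cells were kept with virus for 2 days and sorted for GFP. The question was which gene programs still differed from the wild-type line when the heterozygous line carried wild-type DDX41. The heterozygous line carrying the empty vector (Het empty, 3 libraries) served as the second reference, and the groups with the G173R and R525H vectors (Het G173R and Het R525H, 3 libraries each) are given as values. The labels name 1 line of each genotype, so genotype and line cannot be told apart, and no wild-type cells with a DDX41 vector are among the groups. Nothing in the labels says that the 3 libraries of a group were grown as separate cultures, so a p-value here weighs a difference only against the spread among the libraries at hand, which may be technical.

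DDX41 is a DEAD-box RNA helicase found with the spliceosome, and it has also been described as a sensor of cytosolic DNA. Inherited variants of the human gene predispose carriers to myeloid neoplasms, often with loss or mutation of the other copy in the malignant cells. Hoxb8 holds myeloid progenitors in a dividing, immature state, from which they can form granulocytes, macrophages and other myeloid cells when the factor is withdrawn.

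Total expected counts were 33668669 to 37109795 in WT empty and 36766119 to 49145873 in Het DDX41. The blood progenitor markers Ptprc, Kit, Cd34, Flt3, Spi1 and Myb were present in all 6 libraries, with a summed level of 1180 to 1300 TPM (a scale that corrects for gene length and depth) in WT empty and 1010 to 1070 TPM in Het DDX41. Markers of hepatocytes, fibroblasts and endothelium summed to less than 1 TPM in every library of both groups, and Alb, Ttr, Col1a1, Col3a1 and Cdh5 had no count. Hoxb8 itself was read at 22.8 to 29.0 CPM (counts per library, brought to one total) in WT empty and 23.2 to 26.1 CPM in Het DDX41. Within Het DDX41, libraries 1 and 2 were more alike than any other replicate pair of the series (chi-square per degree of freedom 4.15, against 16.06 to 107.83 for the other pairs), and library 3 stood apart from both (79.84 and 82.19). The names of 12 deposited files carry another group code than the sample title. The files of the libraries titled as wild-type DDX41 carry a code that names no vector, and the code for the wild-type vector stands on the files of the libraries titled R525H. Likewise, the files of Het empty carry a code that names no vector, and the empty vector's code stands on those titled G173R. Groups here follow the titles, so each difference from Het empty holds only for the libraries as titled. Het R525H and Het G173R values stand beside some of the results that turn on which vector the cells received.

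Ddx41 RNA stayed below the wild-type level. It was read at 58.8, 63.4 and 55.6 CPM in the WT empty libraries and at 34.5, 35.3 and 29.5 CPM in the Het DDX41 libraries. The 2 groups did not overlap, and the mean with the vector was 55.8% of the wild-type mean (log2 fold change -0.84, SE 0.11, adjusted p = 0.000434). Het empty stood at 29.4, 33.0 and 28.7 CPM, and the difference between the vectors was 0.13 on the log2 scale (95% interval -0.12 to 0.37). Whether RNA from the vector would be counted under the mouse gene is not given in the sources used here, so these values do not show how much DDX41 the vector added.

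Of 14548 genes tested, 660 (4.54%) passed an adjusted p of 0.05 between Het DDX41 and WT empty. In Het DDX41, 343 were higher (2.36%) and 317 lower (2.18%). The higher genes moved further: 232 of 343 changed more than 2-fold and their median absolute log2 fold change was 1.76, against 142 of 317 and 0.89 for the lower genes. More of the higher genes were also at a low level: 175 of 343 reached 5 CPM in the higher group, against 240 of 317 lower genes. Of the higher genes 40 had no count in any WT empty library, and of the lower genes 4 had none in any Het DDX41 library. Over all genes tested the median log2 fold change was -0.01, and for 3053 genes (21.0%) the libraries of the groups did not overlap. All 343 higher and all 317 lower genes were among these. Where a called gene is said below to be apart between the groups, this adds nothing to its call. The count moved with the libraries: it fell to 399 without WT empty library 1, to 416 and 423 without Het DDX41 library 1 or 2, and rose to 1309 (9.07% of 14426 genes tested) without the libraries numbered 3. That last fit keeps only libraries 1 and 2 of Het DDX41, the most alike replicate pair of the series, and leaves out the spread that library 3 adds.

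**Figure D1:**
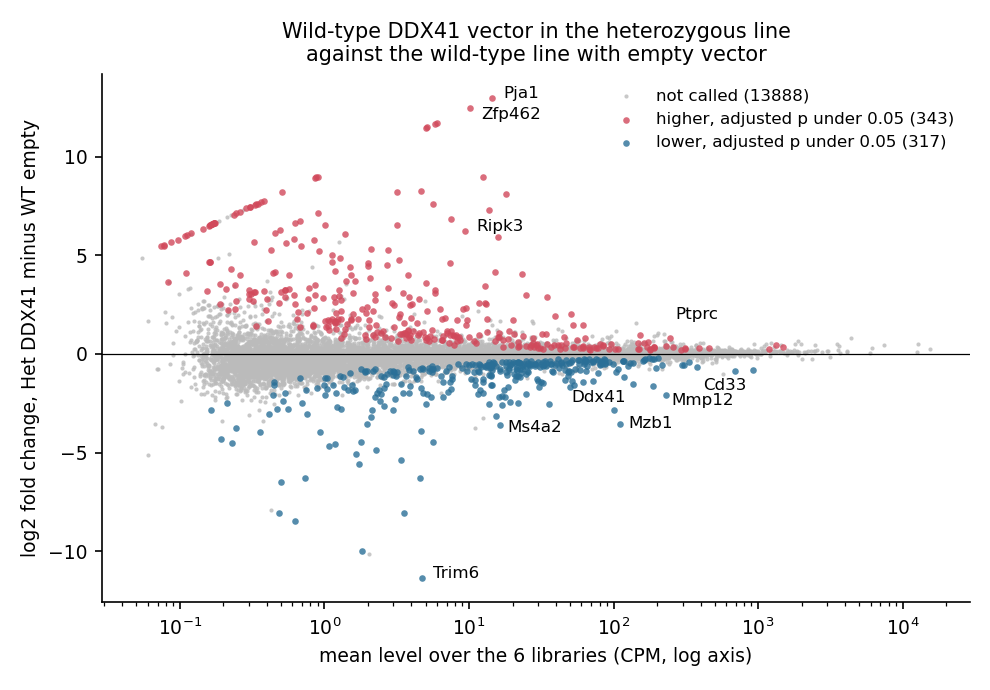
Each point is 1 of the 14548 genes tested, with the mean level of the 6 libraries in CPM on a log axis and the log2 fold change of Het DDX41 against WT empty. Red points (343) passed the test as higher and blue points (317) as lower; the red points above 5 at the upper left are genes with few or no counts in WT empty.

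Against Het empty, by contrast, no gene passed the test (0.0% of 14548 called by edgeR, smallest adjusted p = 1). By edgeR, 254 of 14548 genes had an unadjusted p under 0.05, a smaller share than evenly spread p-values would give. Against WT empty 2282 did. In the comparison with Het empty, limma voom called 0 and DESeq2 called 3 (Cep55, Saa3 and Gm27029, named because DESeq2 called them). The median gene had a 95% interval reaching 0.35 to either side of its log2 difference, for both comparisons. This bounds the vector difference for many genes but does not show that the vectors acted alike.

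The lists of lineage and pathway genes differed in how many of their members departed from the wild-type line. Mast cell and basophil genes had the highest share of members called among the 39 lists, with 6 of 12 lower, followed by extracellular matrix genes (4 of 12), monocyte and macrophage genes (5 of 16) and neutrophil primary granule genes (3 of 11). Members were chosen with earlier results of these data known, so these shares describe the lists and test no program. Fgl2 and Spon1, the 2 rises of the extracellular matrix list, are also among the 12 largest rises. No member was called among the 35 ribosome biogenesis genes, 31 DNA damage genes, 30 cholesterol and fatty acid synthesis genes, 27 immediate early genes or 17 heat shock chaperones; with 4.54% of all genes called, a count of 0 in a list of this size is near the background.

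**Figure D2:**
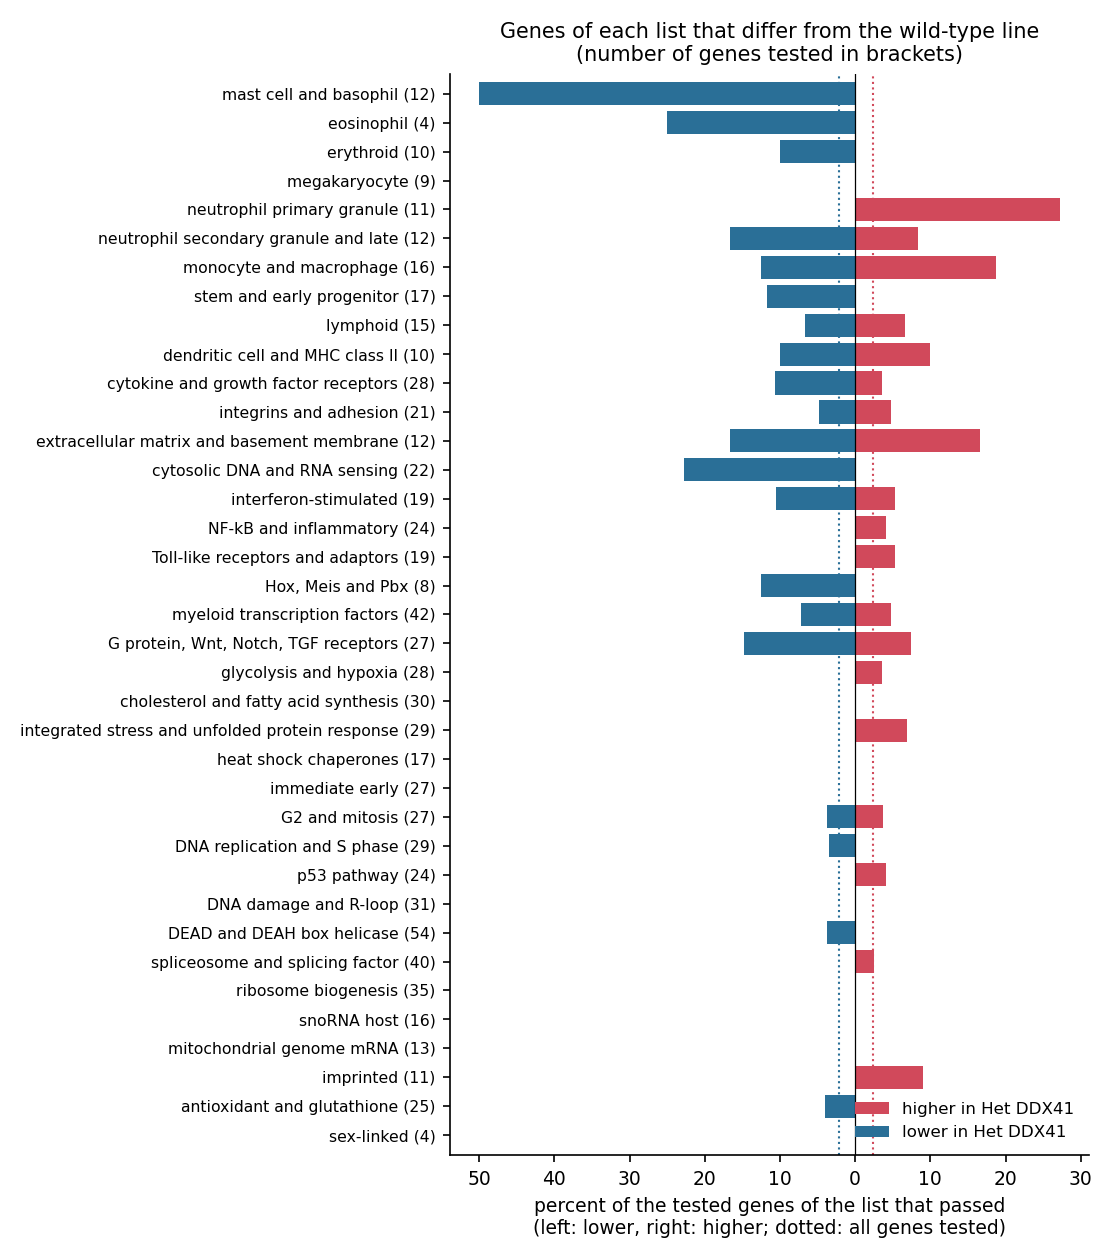
Bars give the percentage of each list's tested genes that passed the test as lower (left, blue) or higher (right, red) in Het DDX41 against WT empty, for lists with at least 4 tested genes; dotted lines give the same for all genes tested (2.18% lower and 2.36% higher). The mast cell and basophil bar reaches 50% on the lower side.

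Mast cell genes were the clearest lineage program below the wild-type level with the DDX41 vector. Of 16 listed mast cell and basophil genes 12 were tested. Of these 6 fell and none rose (50.0% called, against 4.54% of all genes), with a list median of -0.69 against -0.01. The 6 are Ms4a2, the β chain of the high-affinity IgE receptor, the proteases Cma1 (chymase), Prss34 and Cpa3 (carboxypeptidase A3), Il1rl1, the receptor for IL-33, and Slc18a2, the transporter that loads histamine and monoamines into vesicles. Their promoters are shown because these 6 members of the list fell together. The sequences are the 250 bases before the start listed first by RefSeq (GRCm38.p6), with the letters AGATAA or TGATAA, a form of the GATA motif, on either strand (reverse complement TTATCT or TTATCA) in capitals.
Ms4a2 promoter (chr19:11623720-11623969, minus strand): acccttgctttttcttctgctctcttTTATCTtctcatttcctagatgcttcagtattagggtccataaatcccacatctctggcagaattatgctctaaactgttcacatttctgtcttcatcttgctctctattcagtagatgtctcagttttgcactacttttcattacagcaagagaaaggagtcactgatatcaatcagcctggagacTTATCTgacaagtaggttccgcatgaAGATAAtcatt
Cpa3 promoter (chr3:20242182-20242431, minus strand): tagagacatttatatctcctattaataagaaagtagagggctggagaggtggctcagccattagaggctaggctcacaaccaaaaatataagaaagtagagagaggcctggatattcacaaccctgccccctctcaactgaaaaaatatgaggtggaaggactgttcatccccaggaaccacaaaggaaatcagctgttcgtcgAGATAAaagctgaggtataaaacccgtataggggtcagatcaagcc
Prss34 promoter (chr17:25298144-25298393, plus strand): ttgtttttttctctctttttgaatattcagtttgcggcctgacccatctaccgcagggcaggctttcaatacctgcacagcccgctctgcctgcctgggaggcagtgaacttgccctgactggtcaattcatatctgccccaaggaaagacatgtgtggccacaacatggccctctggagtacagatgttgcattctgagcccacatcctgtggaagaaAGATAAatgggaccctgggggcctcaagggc
Il1rl1 promoter (chr1:40429320-40429569, plus strand): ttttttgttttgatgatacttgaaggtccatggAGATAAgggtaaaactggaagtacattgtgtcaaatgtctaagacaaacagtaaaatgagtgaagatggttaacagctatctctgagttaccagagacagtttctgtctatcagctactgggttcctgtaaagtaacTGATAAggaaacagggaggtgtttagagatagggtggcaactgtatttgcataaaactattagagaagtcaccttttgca
Slc18a2 promoter (chr19:59260628-59260877, plus strand): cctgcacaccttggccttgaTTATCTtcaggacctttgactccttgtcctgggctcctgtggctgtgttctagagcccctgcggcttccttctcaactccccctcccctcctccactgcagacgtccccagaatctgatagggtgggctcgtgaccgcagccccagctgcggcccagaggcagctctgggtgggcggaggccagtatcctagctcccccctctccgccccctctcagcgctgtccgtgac
Cma1 promoter (chr14:55944676-55944925, minus strand): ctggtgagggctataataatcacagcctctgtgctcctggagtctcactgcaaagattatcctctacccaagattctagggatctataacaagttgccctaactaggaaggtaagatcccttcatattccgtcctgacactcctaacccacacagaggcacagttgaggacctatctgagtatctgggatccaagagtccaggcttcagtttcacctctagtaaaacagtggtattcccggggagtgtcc
The letters occurred in 5 of the 6 windows, with 3 matches for Ms4a2 and none for Cma1. Among all tested genes with a promoter in the table (9990) 9.46% held them, against 15% of the 240 matched genes called lower and 7.52% of the 266 called higher. These windows are not alike in composition. The 6 shown had a median of 2.5 CG pairs (a C followed by a G), against 16 for all genes and 12 for genes called lower. A match describes letters in this window and shows no binding.

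Ms4a2 was read at 32.7, 36.1 and 14 CPM in WT empty and at 3.08, 3.42 and 2.85 CPM in Het DDX41. Library 3 of WT empty was the lowest of its group and still lay above every Het DDX41 library, and the gene fell 8.84-fold (log2 -3.14, SE 0.31, adjusted p = 2.68e-05). Cpa3, which was the most abundant of the proteases in this set, stood at 46.9, 58.7 and 33.7 CPM against 11.8, 12.9 and 19.1 CPM (log2 -1.67, SE 0.23, adjusted p = 0.000484). Prss34 fell from 6.24, 7.64 and 4.54 CPM to 1.48, 1.25 and 1.90 CPM, and Cma1, at a low level, from 1.91, 2.71 and 1.77 CPM to 0.250, 0.307 and 0.435 CPM. For each of these genes the groups were apart. Il1rl1 fell from 26.7, 34.4 and 20.9 CPM to 4.54, 3.58 and 11.0 CPM, with its highest vector library below the lowest wild-type one (log2 -2.11, adjusted p = 0.00846). That call was lost without Het DDX41 library 1 (adjusted p = 0.053), and the log2 fold change was -2.77 without Het DDX41 library 3 and -2.91 without the libraries numbered 3. Slc18a2 fell 1.54-fold (adjusted p = 0.0131), a call lost without Het DDX41 library 1 or 2 or WT empty library 1 (adjusted p = 0.0697, 0.0651 and 0.082).

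The direct comparison of vectors placed the mast cell genes near the level of the heterozygous line without DDX41. Ms4a2 was 4.22, 4.30 and 5.02 CPM in Het empty, and its difference between DDX41 and empty vector was -0.53 (95% interval -1.18 to 0.12). Cpa3 was 15.2, 14.9 and 17.3 CPM in Het empty, with a difference of -0.12 (-0.61 to 0.37). Het empty itself lay -2.61 and -1.55 from WT empty on the log2 scale, outside both intervals. In Het R525H the means were 2.96 ± 0.249 CPM for Ms4a2 and 13.8 ± 1.92 CPM for Cpa3 (SD, n = 3), so the libraries whose files carry the wild-type vector's code were low as well. Het G173R, whose files carry the empty vector's code, stood at 3.42 ± 1.14 and 16.8 ± 4.25 CPM. Other members of the list did not pass: Kit, the receptor for stem cell factor, had a log2 fold change of -0.23 (adjusted p = 0.0537), and Gata2, Hdc, Mitf, Mcpt8 and Hpgds lay between -0.76 and 0.27. Fcer1a and Mcpt4 had no count in either group. In bulk RNA, fewer mast-like cells and less mast cell RNA per cell cannot be told apart.

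**Figure D3:**
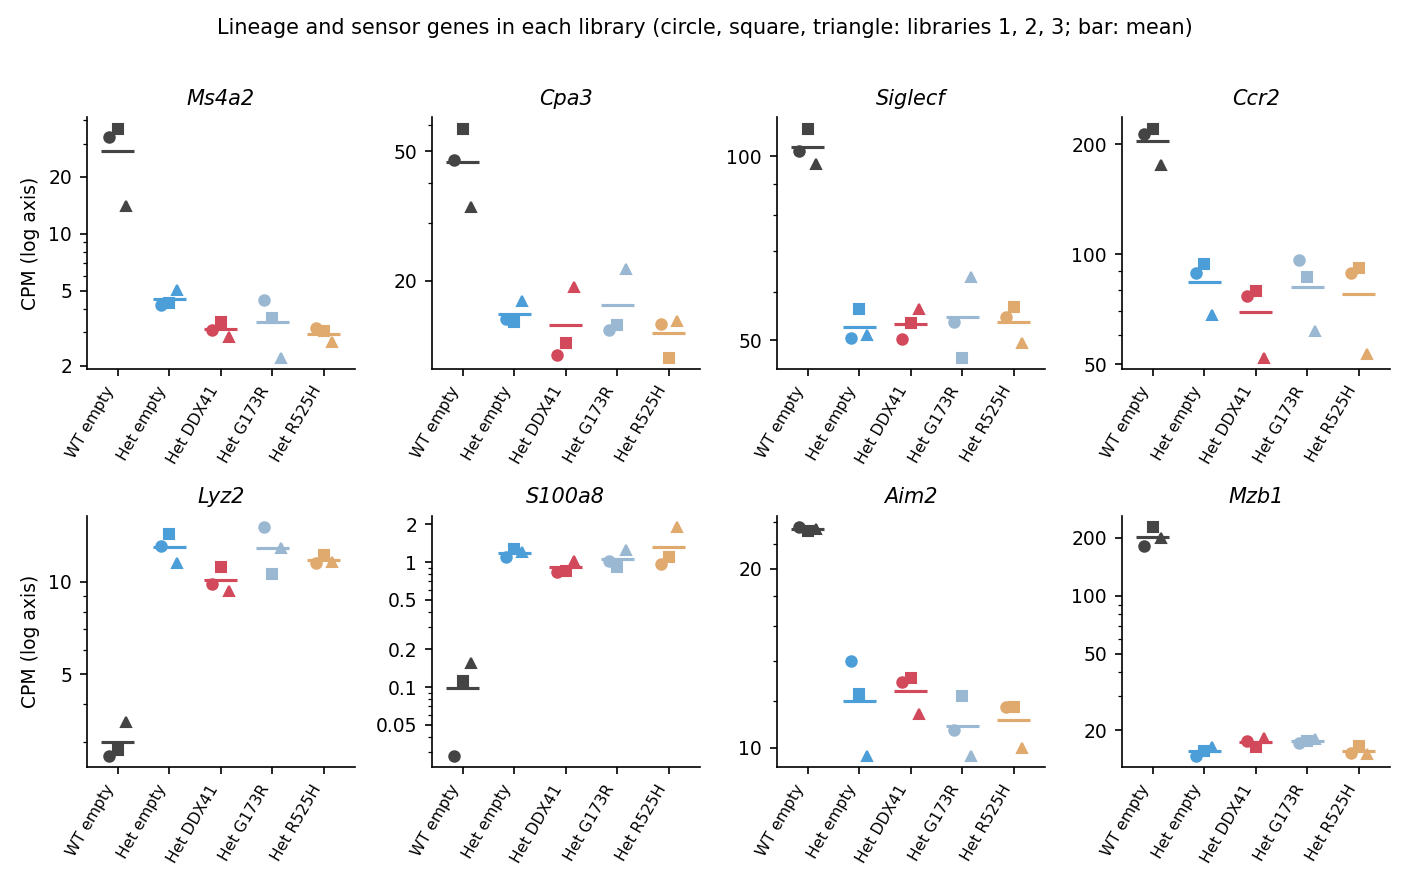
Levels in CPM (log axis) of 8 genes in the 15 libraries, in 5 groups; circles, squares and triangles are libraries 1, 2 and 3 and bars are group means. For Ms4a2, Cpa3, Siglecf, Ccr2, Aim2 and Mzb1 the WT empty libraries lie above all others, and for Lyz2 and S100a8 they lie below.

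Among eosinophil and erythroid genes 1 of each list fell. Siglecf, a sialic acid receptor of eosinophils, fell from 102, 111 and 97 CPM to 50.1, 53.3 and 56.1 CPM (log2 -0.96, SE 0.10, adjusted p = 5.46e-05), and Het empty held 50.3, 56.2 and 50.9 CPM. The groups were well apart, and no other of the 4 eosinophil genes tested was called. Prg2, a protein of eosinophil granules, was under 1 CPM in every library of both groups. Gata1 fell from 3.74, 5.57 and 2.60 CPM to 0.938, 0.790 and 1.22 CPM (log2 -2.01, SE 0.34, adjusted p = 0.00246). It was the only one of 10 tested erythroid genes to pass, of 17 listed. Summed over the list, erythroid genes were at 4060 to 4660 CPM in WT empty and 4080 to 4180 CPM in Het DDX41, so these ranges overlapped. Of 9 tested megakaryocyte genes none passed, and Itga2b, the platelet integrin αIIb, was 14.6, 14.6 and 14.9 CPM against 3.69, 4.59 and 9.40 CPM (adjusted p = 0.104).

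Neutrophil genes went in both directions. Among 11 primary granule and early neutrophil genes 3 rose (27.3% called, against 4.54% of all genes). A positive log2 fold change was found for 10, as for 6976 of all 14548 genes, and the median was 0.57 against -0.01. Lyz2, lysozyme, rose from 2.70, 2.82 and 3.50 CPM to 9.85, 11.2 and 9.32 CPM (log2 1.75, SE 0.15, adjusted p = 6.68e-06). Het empty lay at 13.1, 14.3 and 11.5 CPM, so the DDX41 vector libraries were between the 2 empty vector groups, with a vector difference of -0.36 (95% interval -0.66 to -0.05) that did not pass adjustment. Prom1, a membrane protein of stem and progenitor cells and no granule protein, rose from 0.0554 to 0.141 CPM in WT empty to 0.707 to 1.16 CPM (adjusted p = 0.00579, or 0.0522 by limma voom). Fcnb, a lectin of neutrophil granules, rose 3.70-fold (adjusted p = 0.0356), but not without any 1 of 5 libraries (adjusted p = 0.073 to 0.141; it kept its call without Het DDX41 library 3). The granule enzymes Mpo and Elane had log2 fold changes of 0.38 and 1.63 (adjusted p = 0.777 and 0.225) and depended on library 3: Mpo was 1590 and 1540 CPM in Het DDX41 libraries 1 and 2 and 604 CPM in library 3. Without the libraries numbered 3, 8 of the 11 genes were called higher, where 4.61% of all genes in that fit were. For Het DDX41 that fit rests on libraries 1 and 2, the most alike replicate pair of the series, so its count leaves out the spread of library 3.

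Late neutrophil genes split. S100a8, a calcium-binding protein of neutrophils, rose from 0.0281, 0.111 and 0.156 CPM to 0.833, 0.856 and 1.03 CPM (log2 3.15, SE 0.43, adjusted p = 0.000499), still a low level. Mmp8, the collagenase of neutrophil granules, went the other way, from 174, 224 and 135 CPM to 30.2, 29.3 and 14.2 CPM (log2 -2.85, SE 0.46, adjusted p = 0.00198). In both the groups were apart, and Mmp8 was 27.4, 30.4 and 11.7 CPM in Het empty. Csf3r, the G-CSF receptor, fell 1.35-fold (adjusted p = 0.0286), and leaving out any library other than WT empty library 3 ended that call (adjusted p = 0.0511 to 0.0931). The summed neutrophil markers Ltf, Camp, Ngp, S100a8 and S100a9 were 1.49 to 6.86 TPM in WT empty and 8.46 to 11.6 TPM in Het DDX41; their part in the result was not tested.

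Monocyte and macrophage genes also split, with 3 of 16 higher and 2 lower (31.2% called, against 4.54% of all genes). Ccr2, the chemokine receptor that draws monocytes from the marrow, fell from 214, 221 and 176 CPM to 76.9, 79.2 and 52.1 CPM (log2 -1.55, SE 0.23, adjusted p = 0.000833). Fcgr1, the high-affinity IgG receptor, fell from 22.7, 27.8 and 24.0 CPM to 10.8, 12.1 and 12.5 CPM (log2 -1.07, SE 0.14, adjusted p = 0.000319). In both genes each Het DDX41 library lay below each wild-type one, and the vector differences from Het empty were -0.27 (95% interval -0.75 to 0.21) and 0.02 (-0.29 to 0.32). Itgam, the αM integrin of myeloid cells, rose from 4.19, 4.24 and 5.17 CPM to 9.83, 9.87 and 8.67 CPM (log2 1.06, SE 0.18, adjusted p = 0.00242). Csf2ra, the α chain of the GM-CSF receptor, rose 1.74-fold and Ly6c2, a surface protein of monocytes, rose from at most 0.277 CPM to between 0.815 and 4.42 CPM. Both calls were lost without single libraries, Csf2ra without 4 of the 6 (adjusted p = 0.0745 to 0.0887) and Ly6c2 without 5 (adjusted p = 0.0931 to 0.138).

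Of 17 stem and early progenitor genes 2 were called, both lower (11.8%, against 4.54% of all genes called and 2.18% called lower), and 2 had a positive log2 fold change, as did 6976 of all 14548 genes. Flt3, the receptor tyrosine kinase of early progenitors, fell from 340, 389 and 370 CPM to 255, 259 and 242 CPM (log2 -0.54, SE 0.09, adjusted p = 0.00211). Mycn, a growth-promoting transcription factor, fell 1.76-fold (adjusted p = 0.00766). The groups were apart for both. Other regulators that fell were Pbx3, a partner of Hox proteins (1.81-fold, adjusted p = 0.00374), Ikzf2, a zinc finger factor of the Ikaros family (2.51-fold, adjusted p = 0.00556), and, chosen after their values were seen, Mef2c (5.58-fold, adjusted p = 2.14e-07) and the DNA demethylase Tet1 (3.18-fold, adjusted p = 1.15e-05). Of 15 lymphoid genes tested 1 was called higher and 1 lower (13.3%, against 4.54% of all genes). The list's median was -0.33 against -0.01, and 4 members were positive. Gata3, a factor of T cells, rose from at most 0.130 CPM to 0.943 to 1.22 CPM (log2 4.02, or 5.10 without WT empty library 3 and 5.01 without the libraries numbered 3), and Cd79b, part of the B cell receptor, fell 1.87-fold with a call lost without any 1 of 4 libraries (adjusted p = 0.0612 to 0.0897). H2-Ab1, a chain of MHC class II, had 1 count in each of WT empty libraries 2 and 3 and rose to 1.52, 1.91 and 2.53 CPM (adjusted p = 1.1e-05). Among 10 tested dendritic cell and MHC class II genes it was the 1 called higher, and Flt3 the 1 called lower. Cd74 did not pass (log2 1.18, edgeR adjusted p = 0.552), and H2-Aa, H2-Eb1 and Ciita were not tested.

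Surface receptors differed as well. The prostaglandin receptor Ptger2 fell 1.41-fold (adjusted p = 0.0156), S1pr1, which guides blood cells along sphingosine 1-phosphate, fell 2.05-fold (adjusted p = 0.000251), and the integrin Itga9 fell 1.54-fold (adjusted p = 0.000833). Ptger2 lost its call without any 1 of 3 libraries, namely Het DDX41 1 or 2 or WT empty 1 (adjusted p = 0.0703 to 0.0899). Fzd7, a Wnt receptor, rose from 0.225, 0.360 and 0.104 CPM to 5.90, 4.89 and 4.78 CPM (log2 4.49, SE 0.28, adjusted p = 2.68e-07). Ptprc, the phosphatase CD45 carried by blood cells, was among the abundant genes that rose, from 172, 185 and 182 CPM to 289, 296 and 339 CPM (log2 0.78, SE 0.08, adjusted p = 4.18e-05; named after its values were seen). Cd33, a sialic acid receptor of myeloid cells, fell from 497, 424 and 474 CPM to 304, 290 and 292 CPM (log2 -0.65, SE 0.09, adjusted p = 0.000565). In each of these the groups did not overlap.

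Genes of cytosolic nucleic acid sensing were lower where they differed. Of 22 tested members 5 fell and none rose, or 22.7% called against 4.54% of all genes (2.18% called lower). The median was -0.24 against -0.01 for all genes, and 1 of the 5 is Ddx41 itself. The other 4 belong to the interferon-inducible Ifi200 family and its relative Aim2, which binds DNA and starts the inflammasome. Aim2 was 23.5, 23.1 and 23.3 CPM in WT empty and 12.9, 13.1 and 11.4 CPM in Het DDX41 (log2 -0.90, SE 0.13, adjusted p = 0.000794). Ifi209 fell from 49.7, 53.9 and 39.7 CPM to 18.2, 18.4 and 15.3 CPM (log2 -1.46, SE 0.18, adjusted p = 0.00022), and Mndal from 4.10, 3.68 and 5.56 CPM to 0.708, 0.658 and 0.734 CPM (log2 -2.66, SE 0.26, adjusted p = 2.46e-05). Ifi203 fell 4.84-fold (adjusted p = 0.00591), or by 2.94 on the log2 scale without Het DDX41 library 3 against 2.27 with it. The groups were apart for all 4, as for every called gene, and 5 members were called lower whichever library was left out. Ifi200 genes share much of their sequence, so the split of reads between them is uncertain. Vector differences from Het empty were 0.05 for Aim2 (95% interval -0.23 to 0.34) and 0.36 for Mndal (-0.23 to 0.94). Cgas, the DNA-sensing enzyme that makes cGAMP, and its adaptor Sting1 had log2 fold changes of -0.23 and -0.10 and did not pass (adjusted p = 0.291 and 0.849). Ifi204 and Ifi211, also of the Ifi200 family, were at -0.35 and -0.43 and did not pass either (edgeR adjusted p = 0.113 and 0.569).

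Of 19 interferon-stimulated genes 1 was higher and 2 lower, or 15.8% called against 4.54% of all genes, and the list's median was -0.12 against -0.01. Rtp4, a chaperone of receptors induced by interferon, fell from 30.9, 33.5 and 25.3 CPM to 16.4, 15.8 and 9.51 CPM (log2 -1.10, SE 0.24, adjusted p = 0.0155). Irf9, a subunit of the interferon response complex, fell 1.44-fold (adjusted p = 0.0109), while Mx2, an antiviral GTPase, rose 1.95-fold (adjusted p = 0.0108). Each of the 3 lost its call without at least 1 library: Rtp4 and Irf9 without WT empty library 1 (adjusted p = 0.0554 and 0.0566), Rtp4 and Mx2 without WT empty library 2 (0.0569 and 0.053) and Irf9 without Het DDX41 library 1 (0.0698). Tlr4, the receptor for bacterial lipopolysaccharide, rose 1.2-fold (adjusted p = 0.0196), a call lost without Het DDX41 library 1 or 2 or WT empty library 1 or 3 (adjusted p = 0.0557 to 0.0929).

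The widest differences were genes read in 1 line and nearly absent from the other. Pja1, a ubiquitin ligase gene on chromosome X, had no count in WT empty and 30.1, 31.8 and 24.5 CPM in Het DDX41, at least 1070-fold higher when the wild-type group is set at a floor of 3 counts. Zfp462, a zinc finger gene, had none against 19.6, 19.8 and 21.3 CPM (at least 739-fold), and Fgl2, a secreted fibrinogen-like protein, none against 10.5, 10.6 and 9.43 CPM (at least 375-fold). Pdlim1, Man1a and Spon1 were likewise without a count in WT empty and at least 450-fold, 406-fold and 360-fold higher. For these genes each library of 1 line was at 0. Agap1, a regulator of vesicle traffic, had 5 counts in WT empty, all in library 3, against 3186, a ratio of 539 (95% interval 231 to 1660; fitted log2 8.99, or 12.76 without that library), and Tle3, a transcriptional corepressor, had 3 against 1249. Aldh1l2, a mitochondrial folate enzyme, rose from at most 0.286 CPM to 18.4, 18.7 and 70.3 CPM, with library 3 far above the others (log2 8.10, or 7.13 without it and 9.62 without WT empty library 3). Aldh1l2 and Adgra3, an adhesion receptor gene that rose 195-fold, were not called by limma voom (adjusted p = 0.255 and 0.323). The log2 fold change of Adgra3 was 7.61, or 9.33 without WT empty library 3 and 9.77 without the libraries numbered 3. Cln8, a protein of the endoplasmic reticulum, rose from at most 0.0281 CPM to 6.08 to 6.56 CPM, and Bhlhb9 from at most 0.253 CPM to 27.0 to 28.0 CPM. Ripk3, the kinase of necroptosis, and Zeb1, a zinc finger repressor, both named after their values were seen, rose from at most 0.286 and 0.182 CPM to 17.2, 17 and 21.2 CPM and to 16.8, 17.7 and 10 CPM.

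In Het empty these genes were at similar levels: Pja1 at 30.2, 30.2 and 26.2 CPM, Zfp462 at 26.0, 21.2 and 24.7 CPM and Ripk3 at 15.8, 17.1 and 22.4 CPM. The vector difference was -0.00 for Pja1 (95% interval -0.27 to 0.26), -0.25 for Zfp462 (-0.49 to 0.00) and 0.01 for Ripk3 (-0.33 to 0.34). Het R525H means were 29.6 ± 1.38 CPM for Pja1 and 21.3 ± 1.74 CPM for Zfp462 (SD, n = 3). Those of Het G173R were 28.6 ± 3.7 and 22.6 ± 2.54 CPM.

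Among the falls, Trim6, a ubiquitin ligase of the antiviral response, was read at 8.63, 8.81 and 10.9 CPM in WT empty and had no count in Het DDX41 (at least 412-fold lower) nor in Het empty. Tmem141, a membrane protein gene, went from 784 counts to 3. Mzb1, a chaperone of the endoplasmic reticulum known from B cells and plasmacytoid cells, combined a high level with a large fall, from 181, 228 and 200 CPM to 17.6, 16.3 and 18.2 CPM (log2 -3.55, SE 0.09, adjusted p = 2.51e-11). Each Het DDX41 library lay far below each wild-type one, and it was 14.7, 15.7 and 16.3 CPM in Het empty (vector difference 0.15, 95% interval -0.03 to 0.34). Mmp12, the macrophage elastase, fell from 326, 398 and 394 CPM to 75.2, 86.2 and 100 CPM (log2 -2.10, SE 0.15, adjusted p = 1.02e-06). It was 65.5, 79.7 and 53.9 CPM in Het empty. As titled, the vector difference of Mmp12 was 0.39 (95% interval 0.08 to 0.71), toward WT empty, and did not pass adjustment. Lama5, a laminin chain of basement membranes, fell 12.2-fold and Nqo1, a quinone reductase, 4.64-fold (adjusted p = 2.21e-06 and 5.46e-05). Further falls were Tshz3, Qsox1, Hsh2d, Rab6b, Mzf1 and Mrgpra9, between 5.99-fold and 77.9-fold. For Mrgpra9, at 0.259 to 0.288 CPM in Het empty, the vector difference was 1.39 (95% interval 0.39 to 2.38) and did not pass adjustment. Tshz3 was 0.0625, 0.263 and 0.00 CPM in Het DDX41, and its log2 fold change of -6.28 was -7.89 without library 2.

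The most abundant called genes included smaller changes than that of Mmp12. Ifitm1, an interferon-induced membrane protein, fell from 831, 953 and 873 CPM to 447, 448 and 579 CPM (log2 -0.85, SE 0.17, adjusted p = 0.00837), and Actg1, cytoplasmic γ-actin, rose 1.38-fold (adjusted p = 0.00572, or 0.0508 without Het DDX41 library 3). The chaperone Hsp90b1, the sorting nexin Snx5, the intermediate filament gene Vim and the splicing factor gene Hnrnpa1 rose 1.19-fold to 1.26-fold, and Slpi, a protease inhibitor, and Cux1, a homeobox factor, fell 1.76-fold and 1.31-fold. Each of these 6 lost its call in at least 2 of the 6 fits that left out 1 library. Vim, for example, had an adjusted p of 0.0316 with all libraries and of 0.128 without WT empty library 1.

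Of 28 glycolysis and hypoxia genes 27 lay on the positive side (6976 of the 14548 genes tested did), with a median of 0.49. In 12 the Het DDX41 libraries all lay above those of WT empty, as they did for 10.5% of all genes, yet Slc16a3, the lactate exporter, was the 1 called (19.8, 21.2 and 43.1 CPM against 67.8, 64.1 and 99.5 CPM, adjusted p = 0.0343). The glycolytic enzymes Ldha and Gapdh were both at 0.49 (adjusted p = 0.277 and 0.202). Summed over the list, levels ran from 17100 to 26400 CPM in WT empty and from 25600 to 39300 CPM in Het DDX41, the highest value of each group being library 3, so the groups overlapped. Without the libraries numbered 3, 20 of the 28 were called higher, where 4.61% of all genes in that fit were, and when 1 library was left out the count was 0 to 2. The fit without libraries 3, also used for the next list, rests for Het DDX41 on the closely alike libraries 1 and 2. Its larger counts leave out the spread of library 3. In the integrated stress and unfolded protein response list 28 of 29 were positive with a median of 0.24. Mthfd2, a mitochondrial folate enzyme, rose from 107, 120 and 133 CPM to 180, 179 and 160 CPM (log2 0.53, SE 0.09, adjusted p = 0.00334), and 13 of the 29 were called higher without the libraries numbered 3 (4.61% of all genes in that fit). Not every metabolic or stress list had a median of this size: it was -0.05 for cholesterol and fatty acid synthesis and 0.08 for heat shock chaperones.

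Lists of cell cycle and RNA genes had medians near that of all genes. They were 0.07 for 27 genes of G2 and mitosis, -0.01 for 29 genes of DNA replication, -0.05 for 31 genes of DNA damage and R-loops, 0.02 for 40 spliceosome genes and 0.04 for 54 DEAD and DEAH box helicases. Ddx41 and the low-level Dqx1 were the called helicases, and the Dqx1 call was lost whichever library was left out (adjusted p = 0.0746 to 0.187). The same was so for Bub1, a mitotic checkpoint kinase (0.0874 to 0.182), and Pole, a replicative polymerase (0.0664 to 0.135). Plk2, a kinase induced by p53, rose from 1.57, 1.69 and 3.09 CPM to 12.6, 14.9 and 43.0 CPM (log2 3.46, adjusted p = 0.0107), with library 3 the highest in each group. Without Het DDX41 library 3 its log2 fold change was 2.66, and without WT empty library 1 or 2 the call was lost (adjusted p = 0.0697 and 0.0543).

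**Figure D4:**
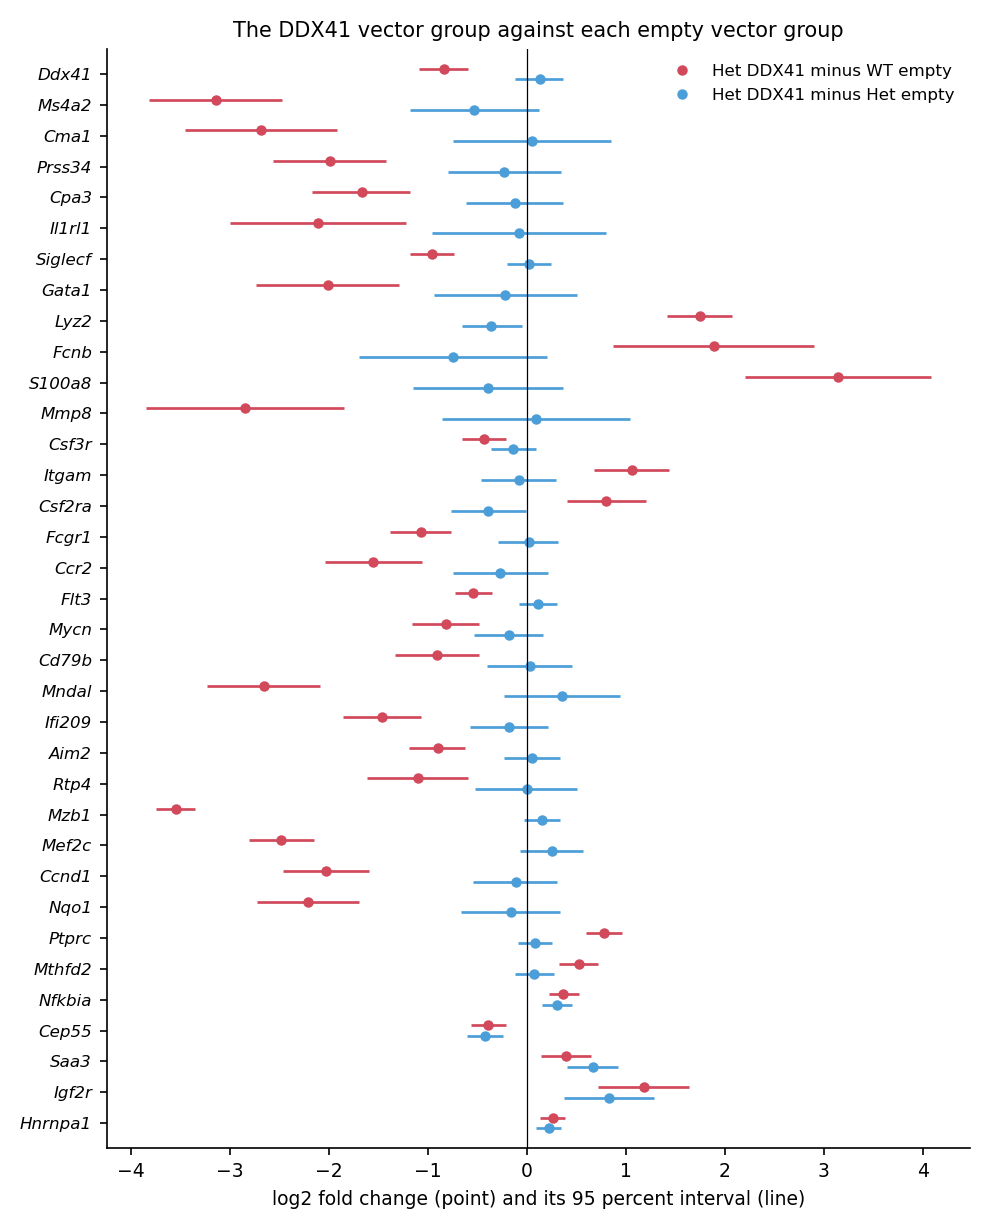
Log2 fold change (points) and 95% interval (lines) of Het DDX41 against WT empty (red) and against Het empty (blue) for 35 genes. For most of the lineage and sensor genes the red interval lies away from 0 and the blue one includes it; for Cep55, Nfkbia, Saa3, Igf2r and Hnrnpa1 both lie on the same side of 0.

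The 6 genes named for the smallest p against Het empty stood apart with the DDX41 vector from both empty vector groups. None of them passed adjustment by edgeR in that comparison. Their separation from Het empty follows from this choice. The comparison with WT empty uses the same Het DDX41 libraries, so it is no independent check. Cep55, a protein of the midbody needed to complete cell division, was 92.5, 97.3 and 86.6 CPM in WT empty, 91.8, 97.8 and 93.1 CPM in Het empty and 73.4, 74.4 and 63.6 CPM in Het DDX41. Each DDX41 library lay below each empty vector library of either line, with log2 differences of -0.42 from Het empty (unadjusted p = 0.000167 by edgeR) and -0.39 from WT empty (adjusted p = 0.0131; 0.0512 without WT empty library 2). Het R525H was lower still, at 66.8, 63.3 and 55.7 CPM, and Het G173R was at 101, 95.4 and 97.1 CPM. Saa3, an acute phase protein, was 11.5, 12 and 11.0 CPM in Het DDX41 against 7.65, 7.27 and 6.85 CPM in Het empty and 7.96, 10.1 and 8.07 CPM in WT empty (difference from Het empty 0.67, unadjusted p = 7.83e-05 by edgeR). In Het R525H Saa3 was 9.54, 9.84 and 10.3 CPM, above Het empty and overlapping WT empty. Nfkbia, the inhibitor of NF-κB, was 58.2, 59.7 and 61 CPM against 46.7, 48.2 and 49.5 CPM in Het empty and 42.4, 46.8 and 48.9 CPM in WT empty. Its rise over WT empty (log2 0.37, adjusted p = 0.0079) lost the call without Het DDX41 library 3 or WT empty library 1 (adjusted p = 0.0679 and 0.0568).

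Of these genes Nfkbia was high in Het DDX41 and not in Het R525H, where it was 46.3, 46.1 and 46.4 CPM; the difference between those groups was not tested. Igf2r, the receptor that carries IGF2 to the lysosome, was 6.04, 6.01 and 5 CPM in Het DDX41 and 6.62, 6.96 and 6.54 CPM in Het R525H, against 4.09, 3.06 and 2.42 CPM in Het empty and 2.36, 3.18 and 2.00 CPM in WT empty (log2 1.18 from WT empty, adjusted p = 0.00495). Hnrnpa1 was 1280 to 1300 CPM in Het DDX41 and 1250 to 1340 CPM in Het R525H, above the 1050 to 1160 CPM of Het empty and the 1030 to 1150 CPM of WT empty. Dennd10, a regulator of endosomes, was 31.0, 33.3 and 35.9 CPM in Het DDX41 and 30.7, 30.5 and 34.3 CPM in Het R525H, against 26.4 to 27.0 CPM in Het empty. The file codes and the titles disagree on which libraries of the heterozygous line carried the wild-type vector and which the empty vector. These differences are therefore tied to the libraries as titled.

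**Figure D5:**
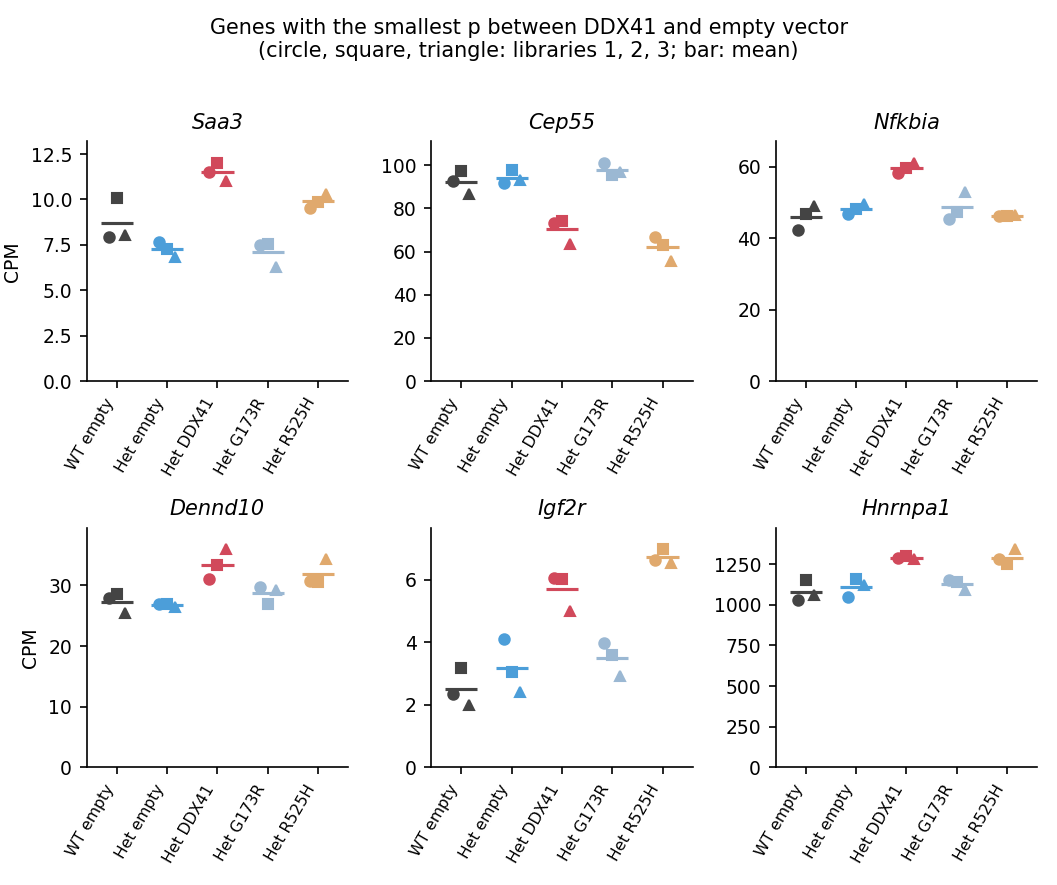
Levels in CPM of the 6 genes with the smallest p between Het DDX41 and Het empty, in the 15 libraries of 5 groups; circles, squares and triangles are libraries 1, 2 and 3 and bars are group means. Cep55, Saa3, Dennd10, Igf2r and Hnrnpa1 shift from Het empty in both Het DDX41 and Het R525H, while Nfkbia is highest in Het DDX41 (58.2 to 61 CPM).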

How the data were processed

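RNA of 15 samples was sequenced in 5 groups of 3 after rRNA removal with a stranded library kit, per the labels' protocols. The authors deposited a table of 55359 genes per sample in RSEM's format, per the file headers; RSEM is also named in the submitters' processing notes. Not given in the sources used here were RSEM's version, the aligner, the genome build and the strand setting. The expected counts, in which RSEM splits reads that match more than 1 gene, were deposited without normalization. TPM, normalized per gene length and depth by the authors per the file headers, was read only for levels between genes, and the FPKM column was not used.

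After rounding to whole numbers, these counts were fitted with edgeR 4.0.16 in R 4.3.3 (filterByExpr, TMM, quasi-likelihood F test, 1 model of all 15 libraries with group as its term, tested on simulated data). P-values were adjusted by Benjamini-Hochberg over the 14548 genes tested, and a gene was called at an adjusted p under 0.05. CPM uses TMM-scaled totals, the SE of a log2 fold change is that change divided by the root of its F, and folds against a group without counts use a floor of 3 counts over the group. Ratios of counts have exact 95% intervals; these and the floors cover counting error only. Alternatives were DESeq2 1.42.0, voom of limma 3.58.1, RLE factors, no low-count filter, a fit of the compared groups alone, a replicate block and left-out libraries.

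Genes were named by a rule: Ddx41; among called genes that have a symbol, reach 5 CPM in the higher group and show no overlap of groups, the 12 largest rises, 12 largest falls and 10 highest levels, without predicted models and pseudogenes; up to 5 called members of each of 39 lists, or up to 2 values from lists without a call; and the 6 smallest p against Het empty. Genes named outside the rule were chosen after their values were seen: Ccnd1, Fgf3, Fgf15, Ano1, Mef2c, Zeb1, Tet1, Ripk3, Ptprc, Slc18a2, Hoxb8, Elane, Mpo, Kit, Ldha, Gapdh, Prg2 and the members given only as values in lists. The members and lists were chosen with earlier results of these data known. Promoters are RefSeq's (GRCm38.p6), and gene order and chromosomes come from GENCODE M21, matched by identifier for 14503 genes (99.7%).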

Additional observations from a re-analysis of the deposited data

How the results depend on the processing

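Among the alternatives run, no named gene reversed its direction, and 64 of 95 named called genes kept the call in every one. The count of genes between Het DDX41 and WT empty (660, with 343 higher and 317 lower) was 1053 with DESeq2 (538 higher, 515 lower), 1309 without the libraries numbered 3 (665 and 644) and 396 when the compared groups were fitted alone (187 and 209). Of the 660 genes, DESeq2 also called 659, the fit without libraries 3 called 572 and the fit of 2 groups 381. Leaving out 1 library gave 399 to 546 genes (207 to 259 higher, 182 to 287 lower), between 387 and 471 of them among the 660. The libraries numbered 3 departed alike from their group means (correlation 0.441 over genes). Each correlated negatively with libraries 1 and 2 of the other group (-0.366 to -0.012). The main model has no term for this and leaves it in the spread. Libraries 1 and 2 did not pair clearly by number (-0.08 and 0.193), and library 1 of Het DDX41 was closest to WT empty library 2 at 0.335. Adding the number to the model as a block called 1887 genes (926 and 961), all 660 included. Against Het empty, DESeq2 called 3 genes (1 higher, 2 lower) and each other alternative 0, the block included. The cause of these shifts was not tested. Of the 95 named called genes 28 lost the call in a fit without 1 library and 6 with limma voom, whose count was 731.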

Other observations

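Some genes next to those that differed from the wild-type line were called in the same direction, and most were not called so. Among 11685 tested protein-coding genes in GENCODE M21 order, 2.83% were higher in Het DDX41, and of the nearest genes on either side of those 10.6% were higher as well. For lower genes the shares were 2.48% and 8.28%. The longest runs of adjacent genes called in 1 direction were Gm32687, Zfp873, AU041133 and Gm4924 on chromosome 10 (higher), with runs of 3 for Ly6c2, Zfp41 and Top1mt on chromosome 15, Dok4, Ccdc102a and Adgrg5 on chromosome 8, and Ids, Eola1 and Tmem185a on chromosome X (all higher), and Cep72, Slc9a3 and Exoc3 on chromosome 13 (lower). These genes were named after their values were seen. By chromosome, the share of tested genes called ran from 3.46% (chromosomes 8 and 11) to 6.32% (chromosome X), with none of 7 on Y and none of 15 on the mitochondrial genome.

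On chromosome 7 the growth factor gene Fgf3, its neighbour Fgf15 and the chloride channel gene Ano1 were lower together, and Ccnd1, which encodes the G1 regulator cyclin D1, lay next but 1. Ccnd1 was 42.5, 44.1 and 33.8 CPM in WT empty and 11.0, 11.1 and 7.39 CPM in Het DDX41 (log2 -2.03, SE 0.20, edgeR adjusted p = 2.27e-05). Fgf3 was 11.4, 14.6 and 7.87 CPM against 2.96, 2.79 and 3.18 CPM (log2 -1.92, SE 0.20, adjusted p = 4.56e-05). Both genes were apart between the groups, and both were as low in Het empty, with Ccnd1 at 11.3, 12 and 8.59 CPM and Fgf3 at 3.74, 3.34 and 3.72 CPM. Ano1 fell by 0.62 and Fgf15 by 0.53 on the log2 scale (adjusted p = 0.00244 and 0.0266), the latter not without Het DDX41 library 2 or 3 or WT empty library 1 or 2 (adjusted p = 0.0582 to 0.0922). LTO1, between Fgf15 and Ccnd1, was at -0.22 and Tpcn2, on the other side, at -0.33, and neither passed (adjusted p = 0.478 and 0.197). Fadd and Ppfia1, beyond Ano1, were at 0.09 and 0.03.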
